A study of Rattus norvegicus with 24 samples.

Results

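The change in sperm DNA methylation between postnatal day (PND) 65 and PND120 was described in male Wistar rats whose dams had been fed BDE-47, a brominated flame retardant. For each of the 5327 regions that the authors list as differing with age, the change was taken as the PND120 level minus the PND65 level in BDE-47 animals, in percentage points. A region with a change of at least 5 points is called a gain or a loss here, and is said to have moved, and one with a smaller change is called flat. There were 189 such regions of 5327 (3.55%), of which 137 were gains (2.57%) and 52 were losses (0.976%), which leaves 5138 flat regions. The list holds regions that, per its header, differed with age in controls, in BDE-47 animals or in both, and 5316 of the 5327 differed by at least 5 points in controls.

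Dams swallowed 0.2 mg of BDE-47 per kg each day from pregnancy day 8 to PND21, in corn oil, and control dams received the oil alone. Each of the 4 groups (BDE-47 PND65, BDE-47 PND120, Control PND65 and Control PND120) held 6 animals, 24 in all. A litter gave 1 male at each age, so the groups of both ages may hold brothers. Motile sperm came from the cauda epididymis after swim-up, and a density gradient was used against somatic cells. Reduced representation bisulfite sequencing (RRBS), a method that covers CpG-rich restriction fragments, gave 1 level per group and region. The files used here hold 0 columns of single animals, so no spread between animals, no test and no p-value can be given, and the read depth of a region is unknown beyond the minimum of 10 reads per CpG.

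DNA methylation in mammals sits mainly on the cytosine of CpG pairs. CpG islands at gene starts are mostly unmethylated in sperm, while gene bodies and intergenic DNA are mostly methylated. The pattern is erased and set anew in the male germ line, and it is then carried through the divisions of spermatogonial stem cells. BDE-47 is a fat-soluble contaminant that reaches offspring across the placenta and in milk.

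The table holds almost no region that would test the purity of the sperm. Of 41 marker genes of epididymal epithelium, leukocytes and somatic testis cells, 4 had listed regions, 7 in all, and 0 of the 7 changed by 5 points. Germline genes that are methylated in somatic cells had 6 listed regions with BDE-47 levels of 3.20% to 42.9% at PND65, all flat. The highest levels there, at Zfp42 (42.9%) and Rbm46 (28.5%), came from regions of 154822 bp and 53907 bp. Maternally imprinted genes had 5 listed regions with BDE-47 levels of 6.57% to 66.5% at PND65, the highest lying 8121 bp from Nnat. Paternally imprinted genes had 0 listed regions.

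Promoter sequences are shown for 4 genes, 2 with several gains and 2 with a loss that ends just before the gene start. They show how dense in CpG the starts of these genes are, and each CpG is in capitals. They are RefSeq sequences of 300 bases around a gene start on assembly GRCr8, given 5′ to 3′ on the gene's strand and matched by symbol. The methylation regions are on assembly rn6, so no base of a promoter is placed within a region. The histone methyltransferase gene Setd1b (chr12:39081822-39082121, minus strand) and the Polycomb gene Cbx6 (chr7:113263364-113263663, minus strand) each had 2 listed regions, both gains. The general transcription factor gene Gtf2b (chr2:234427484-234427783, plus strand) and the zinc-finger gene Zfp770 (chr3:121425907-121426206, minus strand) had a loss 60 bp and 21 bp before the gene. These distances are to the nearer end of regions that held 3 CpGs over 17845 bp and 10 CpGs over 120573 bp.
Setd1b: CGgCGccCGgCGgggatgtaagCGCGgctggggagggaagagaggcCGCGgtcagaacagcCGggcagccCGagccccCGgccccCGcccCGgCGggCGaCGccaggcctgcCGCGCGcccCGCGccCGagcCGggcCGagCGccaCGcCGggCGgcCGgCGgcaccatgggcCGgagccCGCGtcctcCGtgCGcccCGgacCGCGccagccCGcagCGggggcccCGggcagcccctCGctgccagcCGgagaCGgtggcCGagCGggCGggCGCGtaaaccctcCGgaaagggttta
Cbx6: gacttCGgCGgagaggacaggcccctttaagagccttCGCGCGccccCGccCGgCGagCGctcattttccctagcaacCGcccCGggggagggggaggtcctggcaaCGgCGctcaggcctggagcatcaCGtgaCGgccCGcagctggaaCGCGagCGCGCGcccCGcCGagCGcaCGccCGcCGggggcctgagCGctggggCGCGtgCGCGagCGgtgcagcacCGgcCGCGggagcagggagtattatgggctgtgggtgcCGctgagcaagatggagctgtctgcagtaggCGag
Gtf2b: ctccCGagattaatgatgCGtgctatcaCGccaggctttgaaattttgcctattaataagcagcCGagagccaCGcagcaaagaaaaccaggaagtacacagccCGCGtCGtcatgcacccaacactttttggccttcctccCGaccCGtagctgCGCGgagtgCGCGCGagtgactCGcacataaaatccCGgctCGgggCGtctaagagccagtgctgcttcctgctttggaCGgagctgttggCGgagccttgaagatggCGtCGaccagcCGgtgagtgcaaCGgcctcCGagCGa
Zfp770: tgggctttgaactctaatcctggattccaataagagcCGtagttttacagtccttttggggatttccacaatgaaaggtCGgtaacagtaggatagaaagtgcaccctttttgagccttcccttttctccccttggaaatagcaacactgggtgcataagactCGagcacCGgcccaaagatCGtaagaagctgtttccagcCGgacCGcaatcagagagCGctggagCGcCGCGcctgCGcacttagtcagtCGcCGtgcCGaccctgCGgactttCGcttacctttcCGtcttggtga

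The pair of letters CG, which reads the same on both strands, occurred 50 times in the Setd1b promoter and 38 times in that of Cbx6. It occurred 27 times at Gtf2b and 18 times at Zfp770. At least 1 CG is present in 94.5% of the 33469 promoters of the RefSeq table, with a median of 7. As many as at Setd1b were found in 0.729% of them, and as many as at Cbx6 in 4.23%. The corresponding shares were 13.9% at Gtf2b and 27.5% at Zfp770. A promoter was matched for 66.4% of the gains, 53.8% of the losses and 73.9% of the flat regions, under 80% in each, so a comparison of promoter CpG content between these classes is void and none is given.

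Most listed regions hardly differed between the ages in BDE-47 animals. The change was under 1 point in size at 3374 regions (63.3%) and from 1 to 3 points at 1612 (30.3%). From 3 to 5 points there were 152 regions, from 5 to 10 points 126, from 10 to 20 points 49, and above 20 points 14. The flat regions leaned downwards, with 3514 of 5138 lower at PND120 (68.4%) and a median change of -0.404 points. Among the 189 regions that passed 5 points the balance was the other way, with 137 gains and 52 losses. The median gain was 8.42 points and the largest 42.2 points, and the median loss was -7.89 points and the largest -35.3 points.

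**Figure D1:**
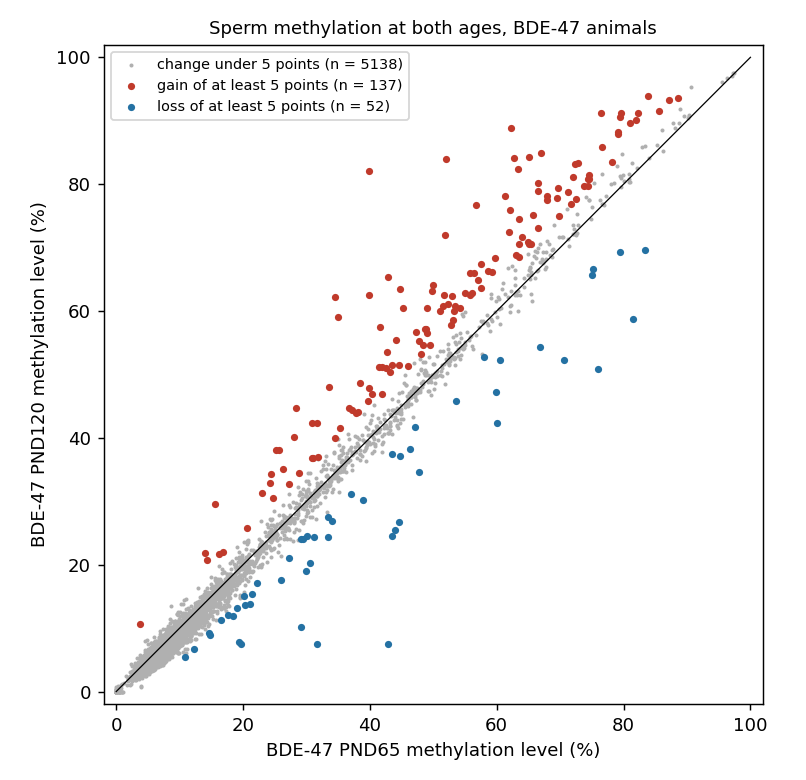
Methylation level (%) of each of the 5327 listed regions in BDE-47 animals at PND65 (x axis) and PND120 (y axis), 1 point per region, with the line of equal levels. The 137 gains (red) lie mostly above 30% methylation, the 52 losses (blue) reach down to 5.38% at PND120, and the 5138 flat regions (grey) crowd at low levels.

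The regions that moved were more methylated than those that stayed flat. Because the PND65 level of BDE-47 animals is a term of the change itself, these levels only describe the classes. The median level of gains was 52.4% at PND65 and 62.6% at PND120, that of losses 33.3% and 24.4%, and that of flat regions 8.31% and 7.71%. Of 3162 regions under 10% in BDE-47 animals at PND65, 1 moved, and of 185 regions at 60% or more, 50 gained and 10 lost. A region under 5% could not lose 5 points, and 794 regions were in that position. Among the flat regions under 10%, the largest differences upwards were at the neuronal RNA-binding protein gene Elavl4 (4.89 points), at a region whose symbol the spreadsheet holds as a date (3.43 points), at Slc26a4 (3.37 points) and at Chst2 (2.87 points). The largest downwards were at LOC100364769 (-3.85 points), Plpp6 (-3.75 points), RGD1563486 (-3.68 points), Eef1b2 (-3.37 points) and Zfp503 (-3.32 points).

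Levels in PND65 controls, which do not enter the change but bear on which regions are listed, gave the same order. They had a median of 46.6% at gains, 20.9% at losses and 0.867% at flat regions. Of 4166 regions under 10% in PND65 controls, 8 gained and 16 lost, 0.576% in all. The share that moved was 5.69% of 598 regions from 10 to 30%, 17.9% of 435 regions from 30 to 60%, and 41.4% of 128 regions from 60% upwards. In that top class 42 regions gained and 11 lost. The median change of all regions in a class went from -0.462 points in the lowest to 2.05 points in the highest.

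Gains were also longer and held more CpGs, which the rule did not use. The median gain spanned 11577 bp with 9 CpGs, the median loss 2016 bp with 4 CpGs and the median flat region 146 bp with 4 CpGs. Regions longer than 1 kb made up 85.4% of gains, 59.6% of losses and 25.6% of flat regions. Gains were 2.57% of the regions but held 6.47% of all CpGs counted in the table, 1938 of 29975. Over all listed regions, the CpGs behind a gain were thinly spread, at a median of 1 per 1165 bp. Losses had 1 per 500.1 bp and flat regions 1 per 33.5 bp.

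**Figure D2:**
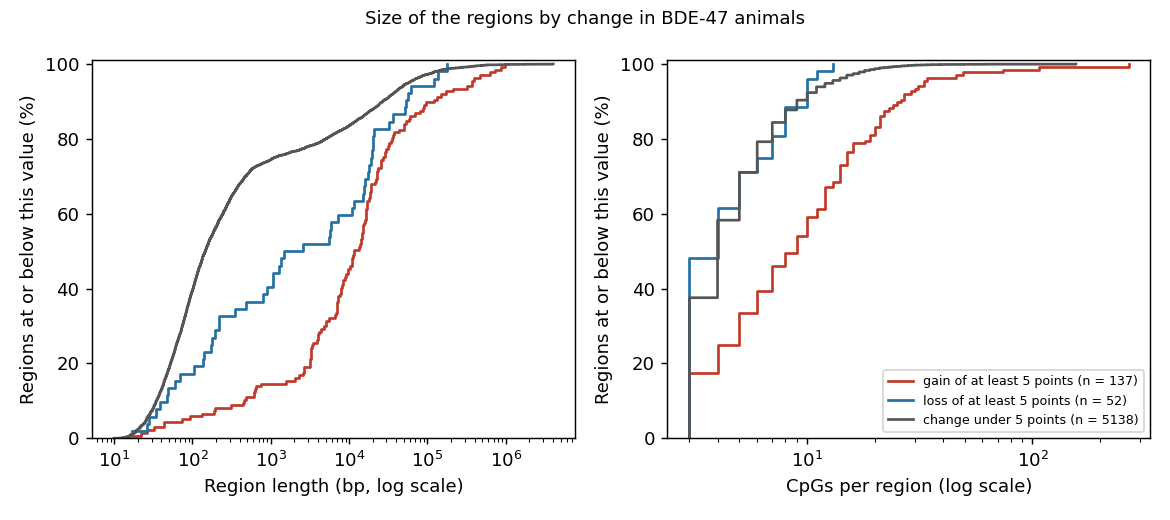
Cumulative share of regions (%) against region length in bp (left, log scale) and against the number of CpGs (right, log scale), for gains, losses and flat regions. The curve of gains lies to the right in both panels, with medians of 11577 bp and 9 CpGs, while losses and flat regions share a median of 4 CpGs.

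Length did not separate the classes in the same way once methylated regions were taken alone. Among the 563 regions of at least 30% in PND65 controls, the median length was 14811 bp for 109 gains, 20034 bp for 22 losses and 31353 bp for 432 flat regions, so gains were the shortest class there and not the longest. The median number of CpGs in this subset was 9 for gains, 5.5 for losses and 8 for flat regions. The median CpG spacing there was 1 per 1271 bp for gains, 1 per 3209 bp for losses and 1 per 3743 bp for flat regions. Gains were thus the most closely spaced class in this subset, not the most thinly spread. Within it, 18.7% of 427 regions of 10 kb or more moved, 32.2% of 115 regions from 1 to 10 kb, 11 of 15 regions from 0.1 to 1 kb, and 3 of 6 regions under 100 bp. Over all listed regions the order was the reverse, with 10.2% of those of 10 kb or more and 0.834% of those under 100 bp.

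**Figure D3:**
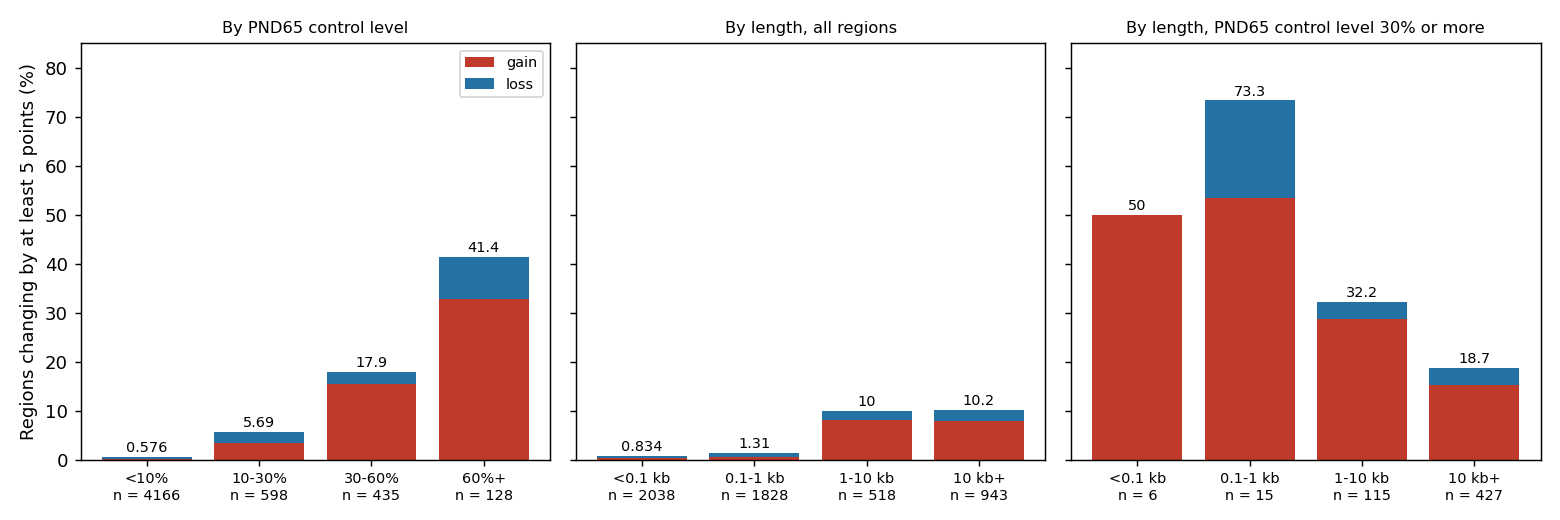
Share of listed regions that changed by at least 5 points in BDE-47 animals (%), split into gains (red) and losses (blue), by methylation level in PND65 controls (left), by length over all regions (middle) and by length in regions of at least 30% in PND65 controls (right). The share rises with level from 0.576% to 41.4%, while its order by length turns between the middle and right panels, whose first 2 bars on the right rest on 6 and 15 regions.

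The position of a region relative to the nearest gene is the authors' own annotation. Gene bodies held 117 of 137 gains (85.4%), 34 of 52 losses (65.4%) and 79.7% of the flat regions. Within 1 kb before a gene lay 0 of the gains, 5 losses (9.62%) and 592 flat regions (11.5%). The remaining gains comprised 1 within 1 kb behind a gene, at Mapk13, and 19 farther away, and 13 losses (25.0%) were farther away, as were 8.33% of the flat regions. In regions of at least 30% in PND65 controls, the flat regions had a gene-body share of 87.5% and an upstream share of 4.86%, against 84.4% and 0 among the gains. A region longer than 100 kb, of which there were 14 among gains and 3 among losses, can span several genes, and the table names 1. A region at distance 0 counts as gene body even where it also crosses a gene start, and the median gain spanned 11577 bp. Whether the upstream counts depend on length in this way was not tested.

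Of the 12 largest gains 9 lay in gene bodies, and all 12 began at intermediate levels. The largest of all was at Lrrc8e, whose protein forms part of swelling-activated chloride channels, in the gene body on chromosome 12 from 2558530 to 2563993. Over its 14 CpGs the authors' BDE-47 level was 39.8% at PND65 and 82.1% at PND120, a gain of 42.2 points. At Mapk13, the gene of the stress kinase p38 delta, 3 CpGs lying 178 bp behind the gene went from 51.96% to 83.9%. No other region of the table gained 30 points.

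At Setd1b, which methylates histone H3 at lysine 4, a gene-body region of 12 CpGs on chromosome 12 from 38862399 to 38865609 went from 34.6% to 62.2%. The neighbouring Setd1b region, with 33 CpGs from 38844714 to 38861010, went from 76.4% to 91.3%. The regions started at different levels and gained 27.6 and 14.9 points. Cbx6, a chromobox protein of Polycomb complexes, had a region of 9 CpGs that went from 25.2% to 38.1% and one of 12 CpGs that went from 37.1% to 44.4%. The histone deacetylase gene Hdac7 gained 7.70 points from 64.0%.

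At the T-box gene Tbx3, needed for limb and mammary development, 21 CpGs within 481 bp of the gene body went from 49.8% to 63.1%, while its 2 other listed regions, at 7.21% and 6.59% at PND65, were flat. Hoxc8, a homeobox gene of trunk patterning, gained 5.92 points over 12 CpGs, from 24.7%. Nr0b2, an orphan nuclear receptor that represses bile acid synthesis genes, gained 14.5 points over 10 CpGs, from 33.5% to 48.0%. The bZIP factor gene Creb3l2 gained 12.4 points, but its 6 CpGs are spread over 322792 bp.

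Both listed regions of Wnt10b, a secreted Wnt ligand, were gains. One with 7 CpGs went from 28.0% to 40.2%, and the other with 8 CpGs from 52.9% to 62.3%. Axin2, a brake on Wnt signalling, gained 5.59 points in 32 bp lying 1584 bp from the gene, and its 3 other regions were flat. Deptor, an inhibitor of mTOR, gained 8.01 points in a region of 4 CpGs, from 36.7% to 44.7%. Tsc22d3, the glucocorticoid-induced leucine zipper gene on chromosome X, gained 22.6 points in 3 CpGs within 43 bp, from 42.9% to 65.4%. Dapk3, a death-associated protein kinase, gained 16.3 points over 23 CpGs, and Bbc3, the pro-apoptotic PUMA gene, 13.9 points over 16 CpGs.

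Adat3, which takes part in editing adenosine in tRNA, went from 39.9% to 62.6% over 34 CpGs, and the RNA-binding protein gene Mex3a from 56.7% to 76.7% over 25 CpGs. Upp1, uridine phosphorylase, went from 62.7% to 84.1% over 16 CpGs. The glycolipid transfer protein gene Gltp gained 17.9 points over 19 CpGs, and the muscle glycogen synthase gene Gys1 10.5 points over 15 CpGs. The F-box gene Fbxo41 gained 18.97 points from 63.4%, and Plekhh2 gained 26.6 points from 62.3% over 5 CpGs. The set of 12 largest gains was completed by a region 18.7 kb from Exd2 (19.3 points), by LOC500956 (24.1 points over 22 CpGs) and by a region of 3 CpGs near LOC103694283 (20.1 points).

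**Figure D4:**
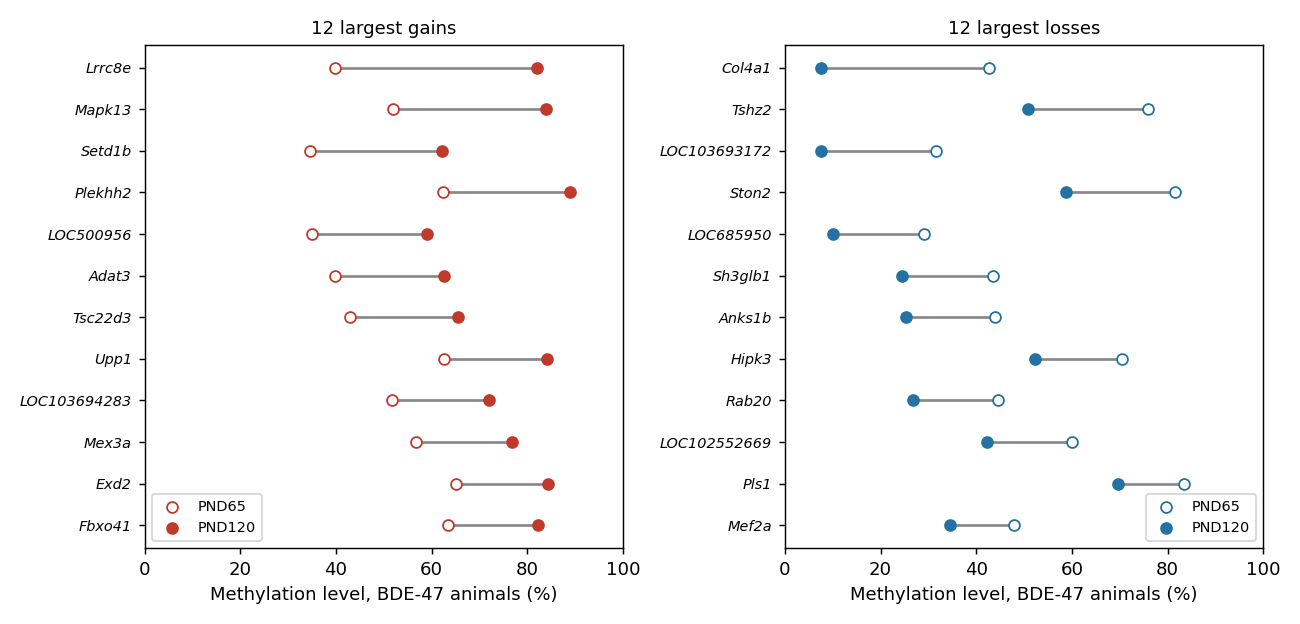
Methylation level (%) in BDE-47 animals at PND65 (open circles) and PND120 (filled circles) for the 12 largest gains (left) and the 12 largest losses (right), labelled by nearest gene, with 1 group value per age. All 12 gains began between 34.6% and 65.0%, whereas the losses began between 29.2% and 83.4%.

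The largest of the 52 losses was 53.3 kb from Col4a1, a basement membrane collagen gene, on chromosome 16 from 83685479 to 83685614, where 3 CpGs went from 42.8% to 7.49%. On the same chromosome, the region at the small GTPase gene Rab20 went from 44.6% to 26.7%. At Tshz2, which encodes a teashirt zinc-finger factor, 4 CpGs went from 75.95% to 50.9%. Ston2, an endocytic adaptor, lost 22.7 points over 8 CpGs from 81.5%, and Sh3glb1, which encodes an endophilin of membrane curvature, lost 18.8 points from 43.4%. The largest loss backed by at least 10 CpGs was at LOC103693172, from 31.7% to 7.46%.

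Anks1b, a postsynaptic scaffold gene, went from 43.9% to 25.4% over 3 CpGs, and its 2 other regions were flat. Slc8a1, the sodium-calcium exchanger of heart muscle, went from 66.8% to 54.3%, and the serotonin receptor subunit gene Htr3b from 79.4% to 69.3%. The calcium channel gene Cacna1g lost 6.01 points in 1 of its 4 regions. Wnt3, a Wnt ligand, went from 19.7% to 7.44% over 5 CpGs. Other losses in the set of 12 were LOC685950 (-19.0 points), a region 49.6 kb from Hipk3 (-18.3 points), LOC102552669 (-17.8 points), Pls1 (-13.8 points) and Mef2a (-13.2 points).

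All 5 regions within 1 kb before a gene that moved were losses, of 597 listed regions in that position. The absence of gains there depended on the window, since with one of 5 kb 3.65% of gains lay upstream. Upstream of the muscle transcription factor gene Mef2a, 3 CpGs spread over 32241 bp went from 47.8% to 34.6%. Vps13b, a lipid transfer protein gene, had 4 CpGs within 34 bp, ending 20 bp before the gene, that went from 29.9% to 19.0%, and its 2 other regions were flat. The region before Gtf2b, with 3 CpGs over 17845 bp, went from 20.1% to 15.1%. That before Zfp770, with 10 CpGs over 120573 bp, went from 47.1% to 41.7%. The fifth lay 201 bp before LOC102546845 and went from 38.8% to 30.2%.

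The losses differed in what controls did at the same regions. In 21 of them controls also lost at least 5 points, with a median BDE-47 level of 44.6% at PND65 and 37.4% at PND120 and a median length of 10974 bp. In 24 others controls gained at least 5 points. A control gain was the usual state, since over all listed regions controls gained as much in 5280 and lost as much in 36. The 24 were shorter than the 21, with a median of 218 bp and 16 under 1 kb. All listed regions had a median of 155 bp, and 27.4% were over 1 kb. The median BDE-47 levels of the 24 were 26.7% and 18.3%, where controls had 7.52% and 17.5%. The PND65 level of BDE-47 animals was above that of controls in 23 of these 24 and in 9 of the 21. Over all listed regions the median PND65 level was 8.54% in BDE-47 animals and 0.936% in controls, so this order was not particular to the 24. At Fbn1, the gene of the matrix protein fibrillin, 3 CpGs went from 26.1% to 17.6% in BDE-47 animals and from 0.470% to 9.06% in controls. At Wnk1, a kinase of ion transport, 4 CpGs went from 21.1% to 13.9% in BDE-47 animals and from 0.0889% to 8.68% in controls.

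From a control level under 10%, 24 regions moved (8 gains and 16 losses), of which 20 held exactly 3 CpGs, none held more than 6, and 15 were shorter than 200 bp. Short regions were usual at this level, since the 4142 flat regions there had a median of 107 bp and 4 CpGs. The medians were 37.5 bp for the 8 gains and 167 bp for the 16 losses. The PND65 level of the 24 in BDE-47 animals ran from 10.9% to 44.7%, a value that is a term of the change itself. The losses near Actrt2, at Prrt4 and at Cabp1 began at 33.3%, 31.2% and 33.3%, from control levels of 0.940%, 1.36% and 0.681%. The gains at Rnf151 (23.1% to 31.4%), Zfp827 (31.0% to 36.9%) and Plekhg2 (28.9% to 34.4%) had control levels of 0.297%, 0.604% and 0.427%. With so few CpGs and no read totals, the precision of these levels is unknown.

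Only 11 of all listed regions differed by less than 5 points in controls. All 11 were among the 189, which follows from what the table lists. The 4 gains among the 11 were at the synaptotagmin gene Syt7 (83.9% to 93.8%), at LOC103690016, at the Wnt cofactor gene Bcl9l and at Axin2. Syt7 stood out in level, since controls had 45.8% at PND65 and 50.4% at PND120. The 7 losses were at Mef2a, Htr3b, the Notch regulator gene Dtx1 (60.5% to 52.3%), LOC102550893, Zfp770, Ripply3 and Cox18. In the other 178 regions the controls moved by at least 5 points too, and 133 of the 137 gains were gains in controls as well. Of all 5327 listed regions, 5280 (99.1%) gained at least 5 points in controls, with a median control change of 9.30 points, so both counts follow from what the table lists.

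The 189 regions belonged to 186 genes, of which 51 had more than 1 listed region. Only Setd1b, Cbx6 and Wnt10b had more than 1 region past 5 points, all gains, and these were the 3 genes in which every listed region moved. Each pair lies close together. The first region ends and the second starts at 140449373 and 140449408 (Wnt10b), 121052466 and 121052788 (Cbx6), and 38861010 and 38862399 (Setd1b). Setting aside 1 moving region per gene, 3 of the 74 other listed regions of the 51 genes moved (4.05%), near the background share of 3.55%. In the other 48 genes 1 region moved and 71 were flat, and in 39 of the 48 the moving region had a higher level in PND65 controls than any flat region of that gene. The median PND65 control levels were 43.1% for the moving and 1.80% for the flat regions. By direction, this order held in 26 of 31 genes with a gain, whose moving regions had a median of 46.6%. It held in 13 of 17 genes with a loss, where that median was 17.9%. At Sp1, a general transcription factor gene, a region of 18 CpGs went from 46.0% to 51.4% while another of 9 CpGs was at 7.90% and 6.10%. At the E protein gene Tcf3, 15 CpGs went from 65.7% to 75.2% beside 5 CpGs at 3.96% and 4.22%. The exceptions included Ip6k2, LOC102550768 and LOC102551503, whose flat region was the more methylated, and Gng7, where this held for 1 of 2 flat regions. In Deptor, a flat region of 20 CpGs stayed at 62.0% and 60.8%, above the gaining region. The exceptions with a loss were Actrt2, Cacna1g, LOC100910970 and Prrt4, each with a flat region of higher control level than the losing one.

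**Figure D5:**
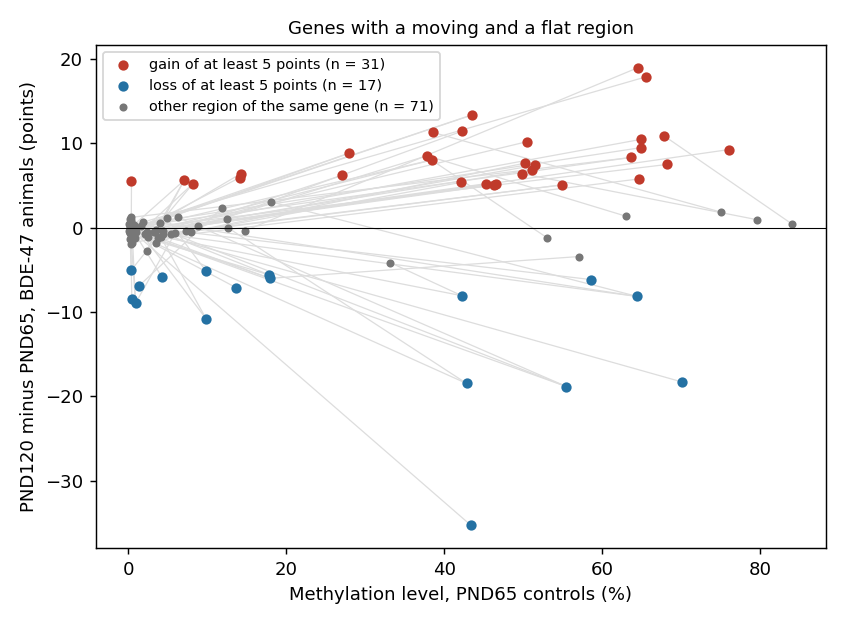
Change in BDE-47 animals (PND120 minus PND65, points) against the level in PND65 controls (%), for the 48 genes that had 1 moving region (31 gains in red, 17 losses in blue) and other listed regions that were flat (71, grey), with lines joining regions of a gene. Most grey points lie near a control level of 0 while the moving regions spread to the right.

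Gains lay near each other more often than losses or flat regions lay near a gain. Another gain was found within 1 Mb of 60 of 137 gains (43.8%), against 11.5% of losses and 19.7% of flat regions, and within 100 kb of 27 gains (19.7%), against 3.85% and 5.66%. These counts include the adjoining gains within Setd1b, Cbx6 and Wnt10b, and the classes were not matched for methylation level or length. Neighbouring regions share animals and may share fragments, and this was not tested. The longest run, of 7 gains, was on chromosome 7 from 11392968 to 12917209 and held Dapk3, Gng7, Adat3, Tcf3, Efna2, Tmem259 and Tpgs1, with gains of 8.51 to 22.7 points. The same stretch held 45 flat regions, with a median BDE-47 level of 8.69% at PND65, and 0 losses. A run of 4 on chromosome 12 joined both Setd1b regions with Camkk2 and Fam109a. Another 4 on chromosome 7, from 143853497 to 144612328, joined the retinoic acid receptor gene Rarg, Sp1, LOC103692987 and Hoxc8. By chromosome, the share of gains ran from 0 of 153 regions on chromosome 15 to 24 of 392 on chromosome 7 (6.12%) and 3 of 42 on chromosome X (7.14%).

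In no list of more than 30 regions did more than 7.81% of the regions pass 5 points, beside the background share of 3.55%. Chromatin and DNA methylation modifiers had 5 gains and 0 losses among 64 regions (7.81%), all at Setd1b, Cbx6 and Hdac7. Synaptic genes had 3 of 55 (5.45%), which were gains at Syt7 and at the GABA receptor gene Gabbr1 (25.7% to 38.2%) and the loss at Cacna1g. Genes with symbols of GTPases and their regulators had 5 of 96 (5.21%), with gains at Rab38, Rhob, Plekhg2 and Acap1 and the loss at Rab20. Developmental signalling had 4 of 96 (4.17%), the homeobox and patterning list 2 of 168 (1.19%), adhesion and matrix genes 1 of 39 (2.56%, Col4a1) and insulin and mTOR genes 1 of 37 (2.70%, Deptor). Median changes of these lists ran from -0.526 points for the homeobox list to -0.185 points for adhesion, beside -0.384 points over all regions.

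The lists chosen by symbol prefix had shares of 1.39% to 5.21%. Zinc-finger genes had 4 of 133 regions (3.01%), with gains at Zfp628, Zfp827 and Zc3h4 and the loss at Zfp770. Ubiquitin ligases and deubiquitinases had 4 of 114 (3.51%), all gains, at Usp21, Rnf151, Fbxl19 and Fbxo41. Kinases and phosphatases had 4 of 115 (3.48%), with gains at Mapk13, Dyrk2 and Camkk2 and the loss near Hipk3. Solute carriers had 1 of 72 (1.39%), the loss at Slc8a1.

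The thyroid and steroid list had 1 of 14 regions past 5 points, Nr0b2, and the maternally imprinted list 1 of 5, a gain from 66.5% to 80.2% lying 8121 bp from the imprinted gene Nnat. The spermatogenesis list (6 regions) and the xenobiotic list (10 regions) had 0. Of the 30 regions that the authors list for a difference with exposure at one age, 0 overlapped a gain or a loss and 1 overlapped a flat region. That was 1 of 5138 flat regions, so overlap was too rare to tell the classes apart.

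At the threshold itself the change was continuous. Just inside it were the gains at Acap1 (5.00 points), the nectin gene Nectin4 (5.02 points) and the arginine methyltransferase gene Prmt9 (5.05 points). Just outside were LOC100360290 (4.9994 points), LOC102554113 (4.96 points) and Spag6l (4.94 points). The smallest losses were at LOC100910970 (-5.05 points), Gtf2b (-5.09 points) and Cox18 (-5.15 points), and the nearest flat regions were at Foxb1 (-4.93 points), RGD1565498 (-4.87 points) and Nrf1 (-4.86 points).

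The balance of gains and losses depended on measuring the change in points. Counted instead as a ratio of levels of at least 1.5, with 1 point added to each level, 15 regions passed upwards and 56 downwards in BDE-47 animals. Only 23 of these 71 regions were among the 189, and the median PND65 level of the 71 was 7.32%. Among regions of at most 1 kb, 20 gained and 21 lost at least 5 points.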

How the data were processed

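Per the series' design text and the submitters' processing notes, reads were mapped to rn6 with Bismark 0.16.1 and Bowtie2 2.2.9, and duplicates were removed with nudup 2.2. Regions were called with MethPipe and given a nearest gene with closest-features 2.4.25. The header of the table gives a q-value under 0.05, 10 reads per CpG and 3 CpGs as its limits, and the submitters list 1 table for age and another for exposure, whose header says mouse where the labels say rat. The authors deposited each group's methylation as a fraction, which was multiplied by 100. CpG counts per region were used as deposited. The authors' deposited difference score in points equalled the computed change within 1.42e-14 points. Coordinates are printed as deposited, and their base (0 or 1) is not given.

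The change was not centred on controls. The sign of the distance was taken to place the gene above (plus) or below (minus) the region, as in 30 of 30 exposure regions. The strand column matched RefSeq for 95.3% of 3008 genes. Symbols were matched to current and older RefSeq names for promoters only.

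Members and the 18 gene lists were chosen with earlier results of these data known. Named regions were the 12 largest gains and losses, genes with several moving regions, up to 4 per list, those nearest 5 points, those from low levels and the largest upstream of a gene. Fbn1, Wnk1, Actrt2, Prrt4, Cabp1, the genes of the runs, the 11 regions with little control change, and further examples were chosen after their values were seen. Some lists use symbol prefixes and can hold unrelated genes. Python 3.11.15 and pandas 2.3.3 were used, and the classification was tested on simulated data. A result that this rule selects is not reported here.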

Additional observations from a re-analysis of the deposited data

How the results depend on the processing

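Of 128 values recomputed under the alternatives, 92 stayed close to the reported ones. Close means within 1.5 times for counts and medians, and within the 95% binomial interval over regions for shares. That interval treats regions as independent, served only as a cut-off and measures no spread between animals. Some of the 92 could not move. Calling flat only changes under 1 point leaves gains and losses as they were, and requiring a control difference of at least 5 points drops no flat region. The other 36 of the 128 values follow. With a threshold of 3 points, losses numbered 139 (median level 19.6%, median length 892 bp) and gains were 59.2% of the regions that moved. With 10 points there were 44 gains and 19 losses, the losses with a median length of 10974 bp and a gene-body share of 78.9%. Regions with at least 10 CpGs gave 63 gains and 6 losses (91.3% gains). There the median CpG number was 16 for gains, 10 for losses and 13 for flat regions, and gene-body shares were 93.7%, 83.3% and 87.5%. Losses then had a median length of 18169 bp, and flat regions one of 17544 bp at a level of 24.9%. In regions of at most 1 kb there were 20 gains and 21 losses (48.8% gains), gains held a median of 3 CpGs, median lengths were 192 bp for gains, 135 bp for losses and 92 bp for flat regions, and gene-body shares were 60% for gains and 78.0% for flat regions. In regions of at least 100 bp, median lengths were 7312 bp for losses and 459 bp for flat regions, whose gene-body share was 81.1%. With a control difference of at least 5 points the median loss was 1255 bp long. An upstream window of 5 kb held 3.65% of gains and 13.6% of flat regions. A ratio of at least 1.5 gave 15 gains. These shifts in part follow from which regions each setting keeps, and their cause was not tested beyond that.

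No paired analysis was possible because the columns hold 1 value per group, and for the same reason leaving out an animal was not run. Read depth per region is unknown.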
